A study of Mus musculus with 2 samples.

Results

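The 10 genes described here carry, limit or run beside the cyclic AMP (cAMP) signal that switches brown fat on, from receptors at the cell surface to the kinase that cAMP turns on. They are the receptor genes Adrb3, Adrb1 and Npr3, the G protein gene Gnas and the G protein regulator gene Rgs2. The others are the phosphodiesterase genes Pde3b, Pde4b and Pde4d, and the protein kinase A subunit genes Prkar2b and Prkaca. The genes were chosen by name for their place in the pathway, out of 15622 genes with at least 1 read, and all reads of their annotated transcripts were taken. The material was interscapular brown adipose tissue, a fat depot under the skin of the upper back whose cells burn lipid for heat, of male wild type C57BL/6N mice aged 20 weeks. The cold library came from a pool of 3 mice that had spent 24 h alone in their cages at 4 °C. The ctrl library is labelled as control. General housing was at 22 to 24 °C, and neither the number of ctrl mice nor their caging is stated in the sources used here. One protocol text, attached to both samples, describes the cold exposure only and another names a different fat depot (eWAT), so the groups were taken from the treatment label and the depot from the tissue label.

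Poly(A)+ RNA was read directly, as RNA, on nanopores. In this assay each read comes from 1 RNA molecule, is read from its 3′ end and is not amplified. The cold library held 1215617 reads and the ctrl library 1698124. Levels are given as RPM, the reads of a gene scaled to 1000000 reads of a library size adjusted by the TMM method. The ratio of the cold level to the ctrl level is followed by its 95% interval, which covers counting error only. With 1 library a group there was no spread between replicates, no test of the conditions was possible and no p-value is given. In bulk tissue, fewer cells of a type and less RNA per cell cannot be told apart.

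Markers of brown adipocytes were abundant in both libraries, as the tissue label has it. The 6 brown adipocyte markers summed to 16630 RPM in the cold library and 14100 RPM in the ctrl library, and Ucp1, the uncoupling protein that produces the heat, had a ratio of 1.21 (1.18 to 1.23). Elovl3, Dio2 and Ppargc1a of this list were higher in the cold library, at ratios of 5.01, 5.94 and 6.03, Cidea had a ratio of 1.31 and Cox8b was lower at 0.720. Markers of skeletal muscle, which lies against this depot, were all higher in the cold library, at least 2-fold for 10 of 10, and summed to 1584 RPM against 344 RPM in the ctrl library. The other lists lay closer together. General adipocyte markers summed to 17720 RPM in the cold library and 14880 RPM in the ctrl library, with members on both sides. Fabp4 and Plin1 had ratios of 1.24 and 1.12 with intervals above 1. Adipoq and Lipe had ratios of 0.656 and 0.827 with intervals below 1, and the Pparg interval held 1. Endothelial markers summed to 329 RPM in the cold library and 294 RPM in the ctrl library, mural and smooth muscle markers to 189 and 187 RPM, fibroblast markers to 174 and 188 RPM, macrophage markers to 54.1 and 37.6 RPM, and nerve and Schwann cell markers to 88.1 and 103 RPM. Adgre1 of the macrophages and Sox10 of the Schwann cells each had 0 reads in the cold library and 2 in the ctrl library, with intervals that held 1. Th of the sympathetic nerves had 0 in both. White adipocyte markers summed to 113 RPM in the cold library and 67.7 RPM in the ctrl library and went opposite ways: Lep had 5 reads in the cold library and 36 in the ctrl library (called lower), while Retn had 118 and 70 and Nnat 22 and 1 (called higher).

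In brown adipocytes, noradrenaline released by sympathetic nerves binds beta-adrenergic receptors, which act through the stimulatory G protein alpha subunit encoded by Gnas on adenylyl cyclases. The cAMP they make binds the regulatory subunits of protein kinase A and frees the catalytic subunits, which drive lipolysis and, through CREB and other factors, transcription of thermogenic genes. RGS proteins limit G protein signalling and phosphodiesterases break cAMP down. Natriuretic peptides act in parallel on receptors that make cyclic GMP, and Npr3 encodes the clearance receptor that takes these peptides up and has no guanylyl cyclase domain.

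Of the 10 genes, 3 reached a ratio of at least 2, cold over ctrl, with 1 outside the interval: Npr3, Pde4d and Rgs2. None was 2-fold lower. This count needs at least 20 reads in both libraries together, which 9 genes had. Pde4b did not. Across the 7529 genes with that many reads, 4.2% were higher by the same rule and 4.08% lower. By the interval alone, 4 of the 9 lay above 1, against 11.3% of all genes, and they were the same 3 genes and Gnas. Prkaca alone lay below 1, against 11.3% of all genes. Whether an interval excludes 1 depends on read depth. The 9 had from 98 to 10040 reads and 2677 of the 7529 genes had at least 100, so the background was not matched for depth. Adrb3, Adrb1, Pde3b and Prkar2b had intervals that held 1. The muscle markers, at 1584 RPM in the cold library and 344 RPM in the ctrl library, moved with Npr3, Pde4d, Rgs2 and Gnas, and their part in these ratios was not tested. On the log2 scale another scaling shifts every gene by the same amount, and these 3 genes were called under each scaling tried. By total counts, 522 genes were 2-fold higher and 189 lower (73.4% of calls higher), against 316 and 307 (50.7%) with TMM, and the median of all genes moved to 0.18. The median log2 ratio with TMM was 0.21 over the 9 genes and 0.00 over all genes. The 9 are few and were picked for their function with earlier results of these libraries known, so the shares are set beside the background as a description.

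**Figure D1:**
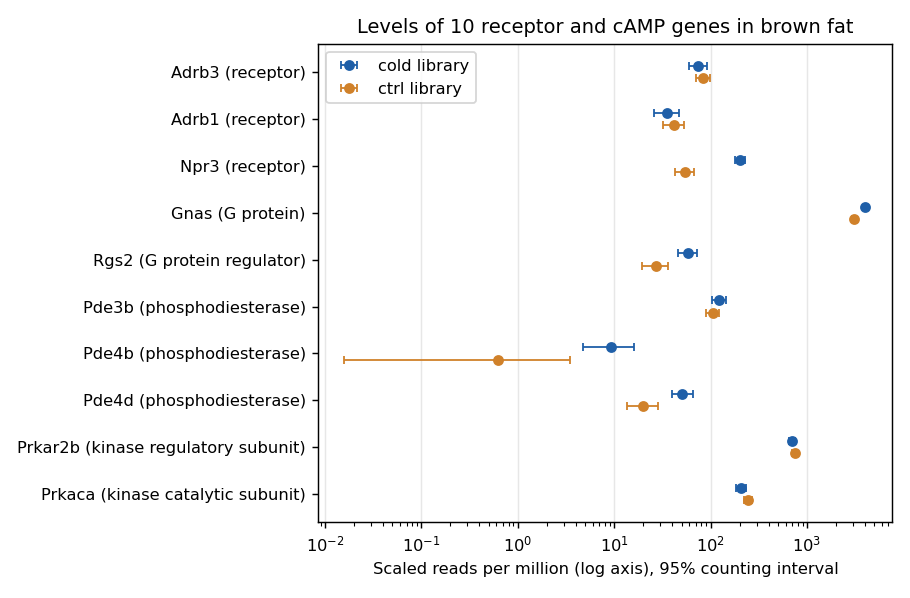
Level of each gene in the cold library (blue, upper point) and the ctrl library (orange, lower point), in RPM on a log axis, with 95% Poisson counting intervals. Gnas stands highest in both libraries at 4014 and 3037 RPM, the points of Npr3, Rgs2, Pde4b and Pde4d lie apart with the cold library higher, and Pde4b has the longest interval because the ctrl library holds 1 read.

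Between genes, levels are given on 2 scales. As each read is 1 molecule, RPM already counts molecules, and RPM per kb, divided by the length of each gene's most abundant transcript, lowers genes with long transcripts. In RPM, Gnas, Prkar2b and Prkaca were followed by Npr3 at 201, Pde3b at 122 and Adrb3 at 74.2 in the cold library, and by Pde3b at 106, Adrb3 at 84.0 and Npr3 at 53.9 in the ctrl library. In RPM per kb the cold library ran from Gnas at 1029 RPM per kb through Prkar2b at 206, Prkaca at 90.7, Npr3 at 29.2, Adrb3 at 26.6, Rgs2 at 19.2, Pde3b at 18.6, Pde4d at 12.1 and Adrb1 at 12.0 to Pde4b at 2.16. In the ctrl library the order was Gnas at 778 RPM per kb, Prkar2b at 220, Prkaca at 107, Adrb3 at 30.1, Pde3b at 16.1, Adrb1 at 14.0, Rgs2 at 8.92, Npr3 at 7.82, Pde4d at 4.77 and Pde4b at 0.146. The top 3 places were the same in both libraries and on both scales. In RPM in the cold library, however, the counting intervals of Prkaca at 206 (182 to 233) and Npr3 at 201 (177 to 227) overlapped. In RPM per kb in the cold library, intervals overlapped for Npr3 and Adrb3, Adrb3 and Rgs2, Rgs2 and Pde3b, and Pde4d and Adrb1. In the ctrl library they overlapped for Pde3b and Adrb1, Adrb1 and Rgs2, Rgs2 and Npr3, and Npr3 and Pde4d. The place of Npr3 depends on the scale, since its main transcript is 6892 bases long: in the ctrl library it stood above Adrb1 and Rgs2 in RPM and below both in RPM per kb.

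Among the receptors, Npr3 was higher in the cold library, while the intervals of Adrb3 and Adrb1 held 1. Npr3, the natriuretic peptide clearance receptor (ENSMUSG00000022206.7, chr15:11839896-11907287, minus strand, GRCm38), had 260 reads or 201 RPM in the cold library and 86 reads or 53.9 RPM in the ctrl library. The ratio was 3.73 (2.91 to 4.82), the highest of the 9 genes with enough reads. Npr3 was the 531st most abundant gene of the cold library and the 1740th of the ctrl library.

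The Npr3 reads were spread over its transcripts in much the same way in both libraries. Npr3-201, the longest at 6892 bases, held 216 of the reads in the cold library and 71 in the ctrl library, which is 83.1% and 82.6%. Npr3-205 held 26 reads in the cold library and 7 in the ctrl library. Most of the additional reads of the cold library were on the main transcript, whose 3′ end lies 2364 bases beyond the next annotated end of the gene. A gene on the opposite strand, Gm5144, overlaps Npr3 exons and had 19 reads in the cold library and 14 in the ctrl library. Whether counting used the strand is not stated in the sources used here.

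The 2 cyclase-bearing natriuretic receptors gave a contrast. Npr1, the receptor for atrial and B-type peptides, had 26 reads in the cold library and 25 in the ctrl library, a ratio of 1.28 (0.712 to 2.32). Npr2, the receptor for the C-type peptide, had 18 reads in the cold library and 19 in the ctrl library. Npr3 therefore made up 85.5% (81.1 to 89.3) of the reads of the 3 receptor genes in the cold library and 66.2% (57.3 to 74.2) in the ctrl library, a difference of 19.4 percentage points (10.6 to 28.6). The peptide genes Nppa, Nppb and Nppc were listed in neither library.

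The beta-adrenergic receptor genes Adrb3 and Adrb1 had similar levels in both libraries. Adrb3, the beta receptor typical of rodent adipocytes (ENSMUSG00000031489.15, chr8:27225776-27250616, minus strand), had 96 reads or 74.2 RPM in the cold library and 134 reads or 84.0 RPM in the ctrl library, a ratio of 0.884 (0.673 to 1.16). Adrb1, the beta receptor better known from the heart (ENSMUSG00000035283.5, chr19:56722199-56733113, plus strand), had 46 reads or 35.6 RPM in the cold library and 66 reads or 41.4 RPM in the ctrl library, a ratio of 0.860 (0.577 to 1.27). Both intervals held 1 and at these read numbers the data do not settle a direction.

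The balance between Adrb3 and Adrb1 differed by less than counting error. Adrb3 made up 67.6% of the reads of both in the cold library and 67.0% in the ctrl library, a difference of 0.606 points (-9.54 to 10.5). Of the alpha receptors, Adra1a had 27 reads in the cold library and 32 in the ctrl library, and none of the 4 adrenergic receptor genes with at least 20 reads had an interval that excluded 1. Reads of Adrb3 fell almost wholly on Adrb3-201, with 95 of 96 in the cold library and 133 of 134 in the ctrl library.

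**Figure D2:**
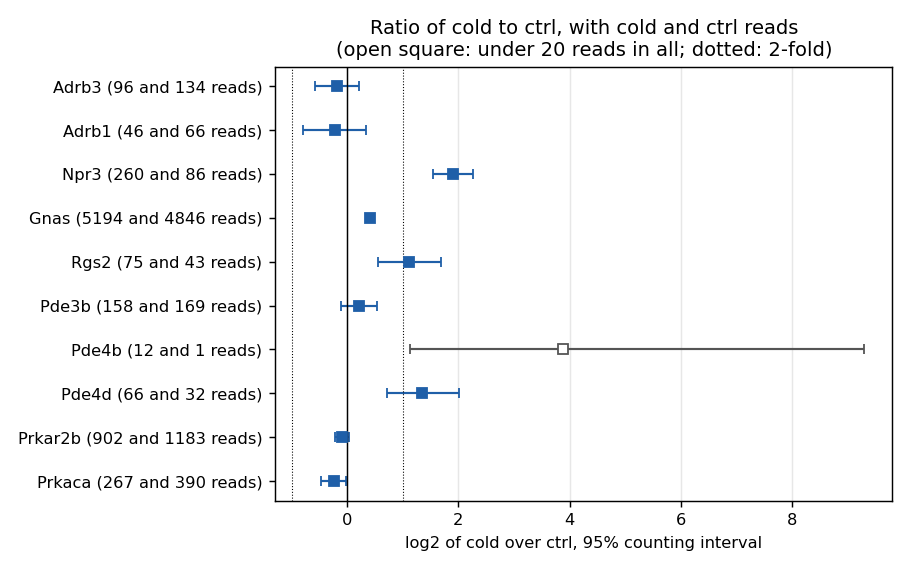
Log2 ratio of cold over ctrl for each gene with its 95% counting interval, with reads of the cold and the ctrl library in the labels; dotted lines mark 2-fold. Npr3, Pde4d and Rgs2 lie beyond 2-fold at 3.73, 2.54 and 2.15, while Adrb3, Adrb1, Pde3b and Prkar2b have intervals across 0, and the open square is Pde4b with 13 reads in all.

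Gnas was the most abundant of the 10 genes and held most of their reads. The gene (ENSMUSG00000027523.19, chr2:174284320-174346744, plus strand) is imprinted and has several promoters, whose transcripts share the later exons and encode the stimulatory alpha subunit, its extra-large form XLas, and the unrelated protein Nesp55. It had 5194 reads or 4014 RPM in the cold library and 4846 reads or 3037 RPM in the ctrl library, a ratio of 1.32 (1.27 to 1.38). Gnas was the 22nd most abundant gene in the cold library and the 32nd in the ctrl library. It took 73.4% of the reads of the 10 genes in the cold library and 69.7% in the ctrl library, so that sums over the 10 genes mostly follow Gnas.

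Gnas also took a larger share of the G protein alpha subunit genes. It had 92.4% of their reads in the cold library and 89.8% in the ctrl library, a difference of 2.63 points (1.57 to 3.70). Gnai1, an inhibitory alpha subunit gene, had 49 reads in the cold library and 33 in the ctrl library, a ratio of 1.83 (1.15 to 2.94). Gnb2, a beta subunit gene, had 150 and 275 reads in the cold and ctrl libraries, a ratio of 0.673 with an interval below 1. The gamma subunit gene Gng5 had 287 reads in the cold library and 340 in the ctrl library, a ratio of 1.04 (0.887 to 1.22).

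The best known variation in Gnas transcripts is exon 3, which is kept in the long form of the alpha subunit and skipped in the short form, with or without 3 more bases just before exon 4. The sequences below show these junctions as the annotated transcripts hold them (GENCODE M21, GRCm38, chr2:174334270-174341667, plus strand). Capitals mark exon 3 or the 3 bases, the first 15 letters are the end of exon 2 and the last 15 the start of exon 4.
Exon 3 kept, as in Gnas-202 and Gnas-208: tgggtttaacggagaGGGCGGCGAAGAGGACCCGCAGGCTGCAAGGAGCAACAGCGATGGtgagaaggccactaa
Exon 3 skipped with 3 more bases, as in Gnas-207: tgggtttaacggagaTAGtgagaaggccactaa
Exon 3 skipped, as in Gnas-206: tgggtttaacggagatgagaaggccactaa

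Exon 3 is 45 bases long (chr2:174336747-174336791). Transcripts that keep it held 3287 of 5187 reads in the cold library and 3072 of 4843 in the ctrl library, which is 63.4% (62.0 to 64.7) in the cold library and 63.4% (62.1 to 64.8) in the ctrl library. The difference was -0.0618 points (-1.95 to 1.83). Over these transcripts, which include forms other than the alpha subunit, a shift in assigned reads of more than 2 points either way lies outside that counting interval. For transcripts holding the alpha subunit coding sequence, a set chosen after seeing the data, the difference was -0.6185 points (-2.655 to 1.421). That interval does not exclude a drop of 2 points. Among the reads without exon 3, transcripts with the 3 extra bases made up 76.8% in the cold library and 76.7% in the ctrl library. By the assignment of reads, whose limits are given below, the division between long and short forms differed by less than counting error between the libraries.

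The annotated starts of Gnas held reads in nearly the same proportions in both libraries, by the assignment of reads to transcripts. Transcripts annotated to start upstream of the coding exon 1, called exon 1A starts here by position alone, held 48.3% of Gnas reads in the cold library and 47.8% in the ctrl library. Most of these reads, 2475 of 2507 in the cold library and 2309 of 2318 in the ctrl library, were on Gnas-202. Gnas-202 holds the whole alpha subunit coding sequence, so the class does not measure use of a separate noncoding exon 1A. Those that start at exon 1 held 38.6% in the cold library and 37.0% in the ctrl library. Transcripts from the Nesp start held 6.22% in the cold library and 7.04% in the ctrl library, a difference of -0.818 points (-1.80 to 0.155). Transcripts from the XL start held 6.84% in the cold library and 8.15% in the ctrl library, a difference of -1.32 points (-2.35 to -0.286). The XL share was lower in the cold library, and of the 4 start classes taken singly it was the one whose interval excluded 0. Exon 1A and exon 1 starts together held 86.9% in the cold library and 84.8% in the ctrl library. That difference was 2.10 points (0.733 to 3.465). A lower share is not a lower level. Gnas-203, which held most reads from the XL start, had a ratio of 1.08 (0.909 to 1.28).

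Shares of starts rest on how the authors' counting divided reads among transcripts that end alike. Gnas-202, Gnas-203, Gnas-206, Gnas-207 and Gnas-211, 5 of the 6 with the most reads, share at least their last 1284 bases. Gnas-208 lies wholly inside Gnas-202, which has 2155 more bases before it and 32 after it. A read that stops inside the shared stretch fits several of them, and how such reads were counted is not stated in the sources used here. Exon 3 lies upstream of that stretch, so a read must pass all of it to show exon 3. How many of the counted reads did so is not known.

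By transcript, Gnas-202 had 2475 reads in the cold library and 2309 in the ctrl library, 47.7% of Gnas reads in each. Gnas-207, the main short form, had 1205 reads (23.2%) in the cold library and 1069 (22.1%) in the ctrl library. Gnas-206, Gnas-208 and Gnas-211 held 8.49%, 6.89% and 6.16% in the cold library and 8.50%, 6.38% and 7.04% in the ctrl library, with differences inside counting error. Gnas-203, from the XL start, had 254 reads (4.89%) in the cold library and 290 (5.98%) in the ctrl library, a difference of -1.09 points (-1.99 to -0.207). Gnas-203 was 1 of 2 transcripts of the 10 genes whose share differed by more than counting error, among 18 with enough reads to count. Across all genes, 8.07% of transcripts had such a difference, so 2 of 18 is near the background.

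The other was Gnas-221, whose share was larger in the cold library. It had 32 of 5194 reads in the cold library, 0.616% (0.422 to 0.869), and 8 of 4846 in the ctrl library, 0.165% (0.0713 to 0.325). The difference was 0.451 points (0.210 to 0.716), and the scaled level was 4.93 times (2.23 to 12.4) that of the ctrl library. Gnas-221 starts near exon 1A with an exon at chr2:174327699-174327941 and then holds a short exon at chr2:174328108-174328131 before exon 2. The annotated 3′ end of Gnas-221, at chr2:174346502, differs from that of Gnas-202 and Gnas-207 at chr2:174346744, and reads begin there. Whether the reads of Gnas-221 reached its junction into exon 2 is therefore not known. The junction is shown because its letters tell the annotated transcript from the main forms, with exon 2 in capitals (chr2:174328117-174334226, plus strand, found in 3 of the 24 annotated Gnas transcripts).
Gnas-221 junction into exon 2: aaggagcacctaaggGTGCTGGAGAGTCTG

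**Figure D3:**
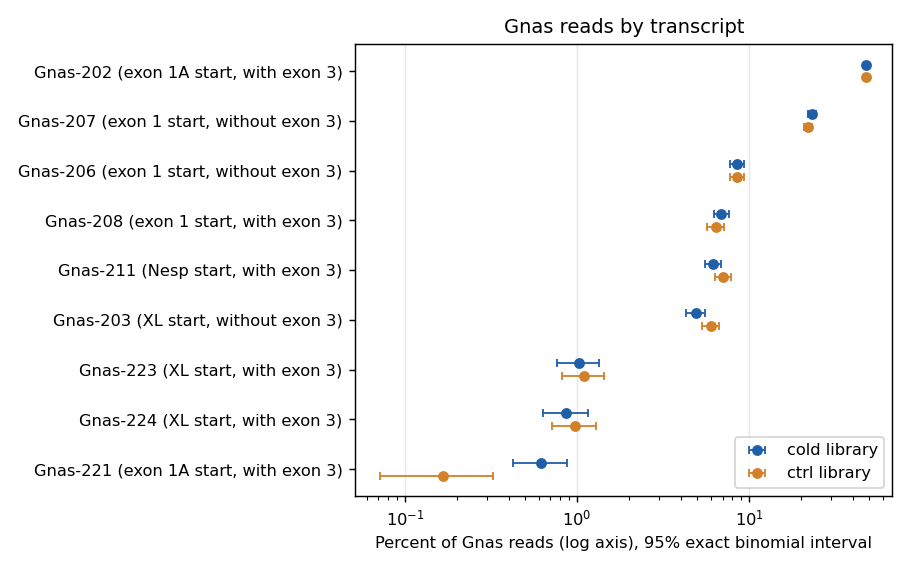
Percent of Gnas reads on each of its 9 transcripts with at least 20 reads in both libraries together, on a log axis, with exact binomial 95% intervals, for the cold library (blue) and the ctrl library (orange). Intervals overlap for the main forms, and Gnas-221 stands apart at 0.616% in the cold library and 0.165% in the ctrl library.

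Rgs2, which encodes an RGS protein and is known from other tissues as an early cAMP-responsive gene (ENSMUSG00000026360.9, chr1:143999338-144004161, minus strand), was higher in the cold library. It had 75 reads or 58.0 RPM in the cold library and 43 reads or 27.0 RPM in the ctrl library, a ratio of 2.15 (1.46 to 3.21). Its main transcript Rgs2-202 held 75 reads in the cold library and 42 in the ctrl library.

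No other RGS gene with at least 20 reads had an interval above 1. Rgs5, a gene of mural cells, had 97 reads in the cold library and 154 in the ctrl library, a ratio of 0.777 (0.596 to 1.01). Rgs7 had 38 reads in the cold library and 84 in the ctrl library, with an interval below 1. Of 19 RGS genes listed, 5 had at least 20 reads and their median log2 ratio was -0.36. Rgs2 made up 24.4% of RGS reads in the cold library and 10.2% in the ctrl library, a difference of 14.1 points (8.58 to 19.8).

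CREB binds the palindrome TGACGTCA and its half-site TGACG, and the promoters of Rgs2 and Prkaca are shown because each holds 2 half-sites just upstream of the start of the transcript that was read, 1 gene with a higher level in the cold library and 1 without. The sequences are RefSeq promoters on GRCm38.p6, limited to at most 250 bases before the start, in the direction of the gene, with TGACG or its reverse complement CGTCA in capitals.
Rgs2 promoter, chr1:144004162-144004399, minus strand: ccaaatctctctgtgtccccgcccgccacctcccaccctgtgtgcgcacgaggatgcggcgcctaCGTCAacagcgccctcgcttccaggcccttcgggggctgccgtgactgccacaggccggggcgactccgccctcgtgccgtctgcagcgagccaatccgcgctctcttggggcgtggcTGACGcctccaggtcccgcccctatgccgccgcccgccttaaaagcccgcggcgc
Prkaca promoter, chr8:83972728-83972977, plus strand: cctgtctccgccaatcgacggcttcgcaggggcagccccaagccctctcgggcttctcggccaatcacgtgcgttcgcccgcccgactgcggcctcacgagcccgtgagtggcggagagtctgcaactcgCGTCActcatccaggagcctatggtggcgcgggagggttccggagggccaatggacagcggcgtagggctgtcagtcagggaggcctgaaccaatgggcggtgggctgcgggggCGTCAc

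Both strands were searched in the 250 bases before each RefSeq start. The half-site was present in 17.8% of 32851 promoter windows and the full palindrome in 1.55%. The 10 genes had 16 promoter entries from 8 genes, of which 8 entries from 6 genes held the half-site (Rgs2, Prkaca, Adrb1, Npr3, Gnas and Pde4b) and 0 the palindrome. The Npr3 entry lies 1732 bases from the start of Npr3-201 and the Pde4b entry 166552 bases from that of Pde4b-207, so neither is the promoter of the transcript that held most reads. A match describes letters only. Of the 6 genes, Rgs2, Npr3, Gnas and Pde4b had intervals above 1, Adrb1 one that held 1 and Prkaca one below 1. Entries of Pde4d, with an interval above 1, and Prkar2b, with one that held 1, lacked the half-site. Adrb3 and Pde3b had no entry. The Gnas windows from chr2:174327499 and chr2:174327518 overlap. GC content ran from 38.8% to 80.0% over the entries, and the background was not matched for it. A link between half-sites and ratios was not tested.

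Pde3b had the most reads of the phosphodiesterases, and Pde4d, Pde4b and Pde4a were higher in the cold library. Pde3b, the insulin-activated phosphodiesterase of adipocytes (ENSMUSG00000030671.9, chr7:114415281-114539251, plus strand), had 158 reads or 122 RPM in the cold library and 169 reads or 106 RPM in the ctrl library, a ratio of 1.15 (0.922 to 1.44). All its reads were on Pde3b-201. The interval held 1.

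Pde4d, a cAMP-specific phosphodiesterase (ENSMUSG00000021699.17, chr13:108449948-109953461, plus strand), had 66 reads or 51.0 RPM in the cold library and 32 reads or 20.1 RPM in the ctrl library, a ratio of 2.54 (1.64 to 4.01). Nearly all its reads were assigned to Pde4d-207, 63 in the cold library and 31 in the ctrl library. The gene has many promoters over a long region. The 3′ end of Pde4d-207 lies 1987 bases beyond the next annotated end, and reads begin there, so the assignment does not tell which promoter was used.

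Pde4b, the related cAMP-specific gene (ENSMUSG00000028525.16, chr4:102087543-102607259, plus strand), had 12 reads in the cold library and 1 in the ctrl library, 9.28 and 0.627 RPM. The ratio was 14.8 with an interval of 2.19 to 633, so the direction lies outside counting error in these libraries but the size is not determined. It stands below the 20 reads needed for the counts above. Of the 12 reads, 11 were on Pde4b-207, as was the 1 ctrl read.

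Pde4a pointed the same way, with 63 reads in the cold library and 45 in the ctrl library, a ratio of 1.73 (1.16 to 2.59). The Pde4 genes together made up 33.8% (29.3 to 38.6) of the reads of 19 listed phosphodiesterases in the cold library and 19.8% (16.0 to 24.1) in the ctrl library, a difference of 14.0 points (7.96 to 19.9). Pde3b made up 37.9% in the cold library and 42.4% in the ctrl library, a difference of -4.47 points (-11.1 to 2.25). Pde1a, a calcium-dependent phosphodiesterase, was lower, with 5 reads in the cold library and 19 in the ctrl library.

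**Figure D4:**
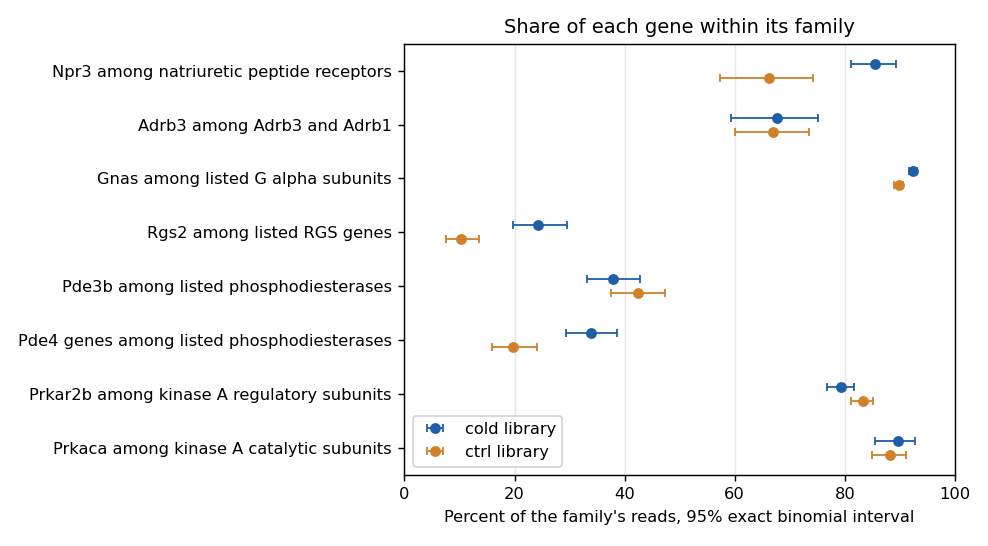
Share of each gene, or of the Pde4 genes together, in the reads of its family, in percent with exact binomial 95% intervals, for the cold library (blue) and the ctrl library (orange). The cold library stands clear to the right for Npr3 (85.5% against 66.2%), Rgs2 (24.4% against 10.2%) and the Pde4 genes (33.8% against 19.8%). The intervals of Gnas (92.4% against 89.8%) do not overlap either, with a smaller gap.

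The kinase subunits were close to level. Prkar2b, the regulatory subunit RII beta that predominates in adipose tissue (ENSMUSG00000002997.15, chr12:31958476-32061296, minus strand), had 902 reads or 697 RPM in the cold library and 1183 reads or 742 RPM in the ctrl library, a ratio of 0.940 (0.861 to 1.03). Prkaca, the main catalytic subunit (ENSMUSG00000005469.10, chr8:83972993-83996443, plus strand), had 267 reads or 206 RPM in the cold library and 390 reads or 244 RPM in the ctrl library, a ratio of 0.844 (0.720 to 0.989). The Prkaca interval ended just below 1, and it held 1 when libraries were scaled by total counts, where the log2 ratio was -0.06 and the median of all genes was 0.18.

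Within the kinase, the proportions shifted by a few points. Prkar2b made up 79.3% of regulatory subunit reads in the cold library and 83.3% in the ctrl library, a difference of -3.92 points (-6.99 to -0.887). Prkar1a, the regulatory subunit found in most tissues, had 211 reads in the cold library and 220 in the ctrl library. Prkaca made up 89.6% of catalytic subunit reads in the cold library and 88.2% in the ctrl library, a difference of 1.36 points (-3.44 to 5.84). Regulatory subunits made up 79.2% of all kinase A subunit reads in the cold library and 76.3% in the ctrl library, a difference of 2.96 points (0.0858 to 5.79). Prkar2b reads were divided among Prkar2b-202, Prkar2b-203 and Prkar2b-201 at 67.4%, 26.8% and 5.77% in the cold library and 64.3%, 29.2% and 6.51% in the ctrl library.

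The wider pathway was covered by 11 lists of 138 genes, from receptors to CREB coactivators, of which 128 were outside the 10. Of these 128, 63 had at least 20 reads, 1 was at least 2-fold higher in the cold library, 1 at least 2-fold lower, and their median log2 ratio was -0.10. The gene that was higher was Adcy3, an adenylyl cyclase, with 973 reads in the cold library and 176 in the ctrl library, a ratio of 6.82 (5.80 to 8.05). The gene that was lower was Pde1a. Adcy6, another cyclase, had 105 reads in the cold library and 115 in the ctrl library, a ratio of 1.13 (0.856 to 1.48).

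By the interval alone, 5 of the 63 lay above 1 and 4 below, each a smaller share than the 11.3% of all genes on either side. The background was again not matched for read depth. Above 1, beside Adcy3, Gnai1 and Pde4a, were Crtc2, a CREB coactivator with 33 reads in the cold library and 22 in the ctrl library, and Sik3, a kinase that acts on such coactivators, with 54 and 40. Below 1, beside Gnb2, Rgs7 and Pde1a, was Grk2, which phosphorylates active receptors, with 34 reads in the cold library and 69 in the ctrl library, and the 5 receptor kinase and arrestin genes with enough reads had a median log2 ratio of -0.20. Rapgef3, a cAMP-activated exchange factor that works beside the kinase, had 23 reads in the cold library and 14 in the ctrl library, and it was 1 of 3 genes on its list with at least 20 reads, all with intervals that held 1. None of the 10 AKAP genes with enough reads, which tether the kinase, had an interval that excluded 1, and Akap1, the mitochondrial anchor, had 168 reads in the cold library and 181 in the ctrl library. The genes with the most reads on their lists also included Rgs3, Opa1, Grk3, Sik2 and Rapgef2. Their ratios were 0.934, 0.932, 0.871, 0.762 and 0.874 in that order, and each interval held 1. The list of CREB family genes and coactivators, which also holds the Sik kinases, had 8 genes with enough reads and a median log2 ratio of 0.35. The 2 with an interval above 1 were Crtc2 and Sik3, and the intervals of Creb1, Crem and Atf1 held 1.

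**Figure D5:**
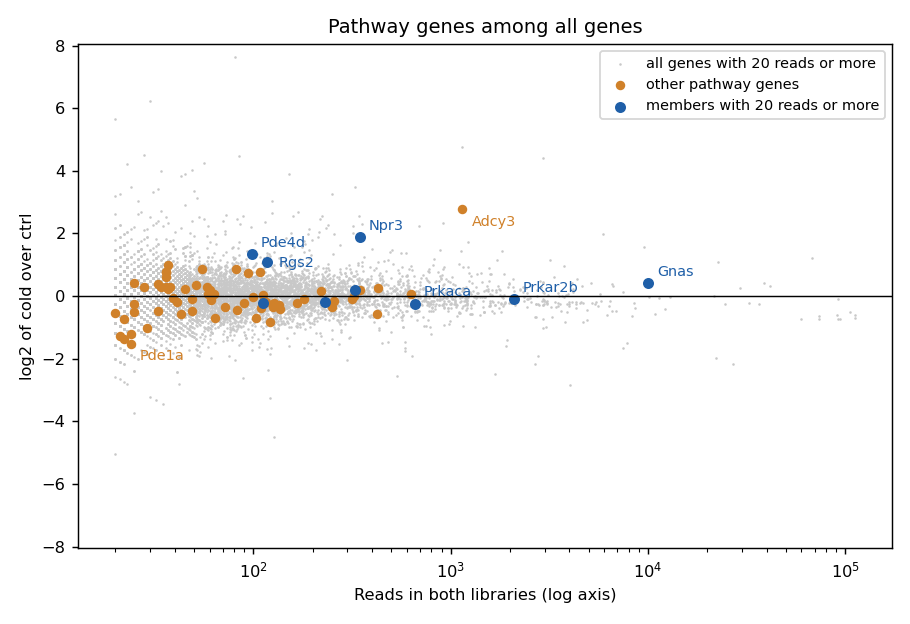
Log2 ratio of cold over ctrl (vertical axis) against reads in both libraries together (log axis) for all 7529 genes with at least 20 reads (grey), the 63 other pathway genes (orange) and the 9 described genes (blue). Npr3, Pde4d and Rgs2 stand at log2 ratios of 1.89, 1.34 and 1.10, Adcy3 at a ratio of 6.82 is the highest of the pathway genes plotted, and Gnas lies at the high end of depth with a ratio of 1.32.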

How the data were processed

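The authors deposited raw counts, in whole reads, for each Ensembl transcript with at least 1 read, without normalization. Per the submitters' processing notes, minimap2 and the build GRCm38 were used. The counting tool, the annotation release, the use of strand and the treatment of reads that match several transcripts were not given in the sources used here. Per the labels' protocols, RNA passed 2 rounds of oligo(dT) selection and 500 ng went into an SQK-RNA002 library.

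Counts were summed to genes by GENCODE M21. Unmatched transcripts, 793 reads (0.0652%) in the cold library and 970 (0.0571%) in the ctrl library, stayed in the library size under no gene name. TMM factors (edgeR 4.0.16) of 1.064 in the cold and 0.940 in the ctrl library gave effective sizes of 1293824 and 1595479 reads. No count model was fitted, since each group is 1 library. Ratios carry exact Clopper-Pearson intervals, taken on the part of a gene's summed reads that is cold and then rescaled, log2 ratios a prior of 0.5 reads, shares exact binomial intervals, and differences of shares Newcombe intervals. Transcript shares were compared for transcripts with at least 20 reads of genes that had 20 or more in both the cold and the ctrl library. All intervals cover counting error at the 95% level. The calculations were tested on simulated data. The naming rule takes the 10 genes and, of each pathway list, the genes 2-fold apart and the 2 with the most reads. Other genes were named after their values were seen, as family members or because their interval excluded 1. The members and lists were chosen with earlier results of these data known, and Gnas-221 and the promoters of Rgs2 and Prkaca were picked after their values were seen. Python 3.11.15 and R 4.3.3 were used.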

Additional observations from a re-analysis of the deposited data

How the results depend on the processing

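Scaling by total counts, total counts without mitochondrially encoded genes or DESeq2 size factors, counting protein-coding transcripts alone or the most abundant transcript alone, and a fold of 1.5 each kept Npr3, Pde4d and Rgs2 as the genes called higher. With at least 1 read as the minimum Pde4b joined them (4 genes), and with at least 100 reads Npr3 and Rgs2 were left (2 genes). The median log2 ratio of all genes moved to 0.18 by total counts and 0.13 without mitochondrially encoded genes. Under both, Prkaca was no longer below 1, so 0 genes were, and Pde3b lay above 1. Gnas moved from 0.40 to 0.58 and 0.54, and Prkar2b from -0.09 to 0.09 and 0.04, which changes its sign. Of the other pathway genes, the 1 that was 2-fold higher became 4 by total counts, 4 without mitochondrially encoded genes, 2 with the most abundant transcript, 3 with at least 1 read and 5 at a fold of 1.5. The 1 that was lower became 0 by total counts, 0 with at least 100 reads and 3 at a fold of 1.5. The 2 transcripts with a differing share became 1 with protein-coding transcripts alone (Gnas-203). The exon 3 share restricted to transcripts holding the alpha subunit coding sequence, chosen after seeing the data, was 63.3% in the cold library and 63.9% in the ctrl library. No paired analysis was possible because each group has 1 library, and no library could be left out for the same reason. Adrb1, Adrb3, Rgs2 and the Pde4 genes have under 250 reads each, so counting error is widest there.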

Other observations

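Genes with exons that overlap those of the described genes on the opposite strand had few reads. Gm45470, opposite Adrb3, had 5 reads in the cold library and 5 in the ctrl library, and Gm20721, opposite Gnas, had 20 reads in the cold library and 22 in the ctrl library. Nespas was listed in neither.

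Transcript length went with the ratio to a small degree over all genes. The median log2 ratio was -0.14 for genes whose main transcript is at most 1000 bases and 0.03 for those above 4500 bases. Npr3 and Pde3b are the only 2 of the 10 genes in the longest class.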
